A study of Mus musculus with 4 samples.

Results

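Retinoic acid synthesis and response genes were followed in stromal and bone-forming cells of mice whose hind limbs were immobilized. The 7 genes were taken by name, out of 32286 features in the deposited count tables: Aldh1a2 and Aldh1a1 (synthesis), Rbp4 (retinol transport), Rara, Rarb and Rarg (nuclear receptors) and Cyp26b1 (degradation). They were chosen by their levels and ratios in earlier results of these data, so both are given here as a description. The immobilized group was a pool of cells from 6 animals that had spent 2 weeks immobilized, and the control group was a pool from 4 animals. All mice were C57BL/6J, 10 weeks old at collection, and carried Tnfsf11tTA/+; LC1; Rosa26LSL-tdTomato, a system in which cells that have expressed the RANKL gene Tnfsf11 are marked by tdTomato for good. Doxycycline from E0 to birth kept labelling off in the fetus in both groups, and both groups carry the Tnfsf11 knock-in allele. Sorted CD45.2- Ter119- tdTomato+ cells of bone and bone marrow were profiled with the 10x Genomics 3′ single-cell method, so that a level here is a count of 3′ tags per gene.

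Each pool was loaded once and read on 2 lanes. The lanes of the immobilized pool shared 1747 of 1751 and 1754 cell barcodes and those of the control pool 1617 of 1620 and 1620, so lanes were averaged and each group counted as 1 sample (a gene's count can then end in 0.5). With 1 pool a group no difference between groups could be tested, and intervals are 95% counting intervals that leave out the variation between animals. After filtering, 1394 immobilized and 1411 control cells remained, with a median of 5706.5 and 5576.5 UMIs (unique molecular identifiers, 1 per captured transcript). From markers of each cell type, 3 skeletal classes were named: Lepr+ CAR (Cxcl12-abundant reticular) stroma-like cells (351 immobilized and 573 control cells), osteo-primed stroma-like cells (356 and 205) and osteoblast-like cells (467 and 472). The 14 CAR markers summed to 33310 and 33473 CPM (counts per 1000000) on the lanes of immobilized CAR cells and to 39761 and 40041 CPM on those of control CAR cells, with no marker at 0. The 10 osteoblast markers summed to 106066 and 105879 CPM in immobilized osteoblasts and 140760 and 140946 CPM in control osteoblasts, and the 10 osteo-primed markers to 46526 and 46410 CPM in immobilized and 47148 and 47200 CPM in control osteo-primed cells.

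Vitamin A circulates as retinol bound to RBP4. Inside cells retinol is oxidized to retinal, and the ALDH1A enzymes turn retinal into retinoic acid, a step for which ALDH1A2 is the main enzyme of the early mouse embryo. Retinoic acid binds the receptors RARA, RARB and RARG, which sit on DNA with an RXR partner and switch target genes on, and CYP26 enzymes then hydroxylate and clear it. In bone the balance matters: excess vitamin A is known to thin bone, and mice that lack Cyp26b1 have malformed limbs and skulls.

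The genes lie on 6 mouse chromosomes (GRCm38): Aldh1a2 at chr9:71215789-71296243 on the plus strand, Aldh1a1 at chr19:20492715-20643465 (plus), Rbp4 at chr19:38116629-38125281 (minus), Rara at chr11:98927818-98974942 (plus), Rarb at chr14:16430839-16819156 (minus), Rarg at chr15:102234938-102257517 (minus) and Cyp26b1 at chr6:84571414-84593908 (minus). Rarb overlaps Top2b and Gm48162 on the other strand and Aldh1a1 overlaps C730002L08Rik, and the sources used here do not say how strand was used in counting, so reads of such pairs may be shared. Retinoic acid receptors bind pairs of hexamers in the same orientation, and both Rarb and Cyp26b1 are known to be induced by retinoic acid in other mouse cells. The promoter windows of these targets and of Aldh1a2, from 250 bases before the start of transcription to 50 after it, are shown for that reason (RefSeq, GRCm38.p6, each on its gene's strand). Pairs of the hexamers AGGTCA or GGTTCA or AGTTCA or GGGTCA were searched on both strands, and a window with several pairs was counted once. Capitals mark the pair found in Rarb, 5 bases apart and 53 to 37 bases before the start used for that window. The Rarb window lies inside the gene's span given above, away from its 5′ end, and 3′ tags do not show which start a transcript used.
Rarb, chr14:16575427-16575726, minus strand: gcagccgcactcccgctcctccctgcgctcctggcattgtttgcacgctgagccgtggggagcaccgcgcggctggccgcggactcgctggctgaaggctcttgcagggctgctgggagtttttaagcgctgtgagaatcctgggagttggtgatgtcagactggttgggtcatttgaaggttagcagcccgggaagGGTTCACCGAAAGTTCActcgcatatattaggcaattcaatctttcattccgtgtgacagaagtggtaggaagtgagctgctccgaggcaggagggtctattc
Cyp26b1, chr6:84593761-84594060, minus strand: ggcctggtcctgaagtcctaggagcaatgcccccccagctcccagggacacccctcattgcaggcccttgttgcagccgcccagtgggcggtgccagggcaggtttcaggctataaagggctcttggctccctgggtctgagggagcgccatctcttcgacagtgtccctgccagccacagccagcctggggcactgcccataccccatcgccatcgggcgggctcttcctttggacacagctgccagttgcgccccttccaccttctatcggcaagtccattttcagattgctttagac
Aldh1a2, chr9:71215539-71215838, plus strand: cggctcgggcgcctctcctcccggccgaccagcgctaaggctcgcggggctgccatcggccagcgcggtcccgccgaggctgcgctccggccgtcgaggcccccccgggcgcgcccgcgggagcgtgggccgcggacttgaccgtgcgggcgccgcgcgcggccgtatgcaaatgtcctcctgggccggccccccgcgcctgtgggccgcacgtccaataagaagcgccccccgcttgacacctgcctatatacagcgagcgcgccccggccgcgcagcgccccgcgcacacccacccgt
Such a pair with 5 bases between hexamers occurred in 32 of 32851 promoter windows (0.0974%), and in 1 of the 13 windows of the 7 genes, that of Rarb. Pairs 1 base apart occurred in 0.222% and pairs 2 bases apart in 0.268% of all windows, and in no window of the 7 genes. The pair in Rarb is made of GGTTCA and AGTTCA, which were among the hexamers searched, so its match is a description and tests nothing. A match describes these letters and is no measure of binding.

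Aldh1a2 was a CAR stroma gene in both pools. Its level in CAR cells was 228 and 230 CPM on the 2 lanes of the immobilized pool, against 437 CPM on both lanes of the control pool. CAR cells held 92.0% of all Aldh1a2 UMIs of the immobilized pool and 85.0% of those of the control pool. Osteo-primed cells stood far lower, at 12.6 CPM in the immobilized and 64.3 CPM in the control pool, and osteoblasts were near 0, at 0.868 CPM in each pool (3.5 and 4.5 UMIs). The CAR level was thus 18.1 times the osteo-primed level in the immobilized pool and 6.80 times in the control pool. At least 1 UMI was seen in 42.9% of immobilized CAR cells and 51.9% of control CAR cells, against 0% of 111 immobilized and 2.90% of 69 control haematopoietic cells (median depths 4440 and 3979 UMIs in CAR cells, 2209 and 2854.5 UMIs in haematopoietic cells), which gives the background of free RNA (for 0 of 111 cells the interval reaches 3.27%).

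The CAR class held 4 clusters, made without the 53 retinoid genes among the genes that define them, and they differed in Aldh1a2. Cluster 6, led by Nrg3 and Ptn, had the highest level, 437 CPM in the immobilized pool (70 cells) and 857 CPM in the control pool (241 cells). Cluster 1, led by Frmd5, Lrrn1 and Igf1, came next in the immobilized pool at 290 CPM (113 cells), and had only 11 control cells. Cluster 3 (Igfbp3, Kcnq3, Il34) had 126 CPM in the immobilized and 142 CPM in the control pool, and cluster 0 (Kit, Fabp4, Cxcl14) 104 and 73.0 CPM. In the immobilized pool the order was 6, 1, then 3 and 0, the last pair not apart beyond counting error; in the control pool cluster 6 stood 2.59 log2 units above cluster 3 (2.31 to 2.89), which was not apart from the osteo-primed cluster 2 at 122 CPM. Aldh1a2 is itself among the leading genes of cluster 6, so its level there describes the cluster and tests nothing.

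**Figure D1:**
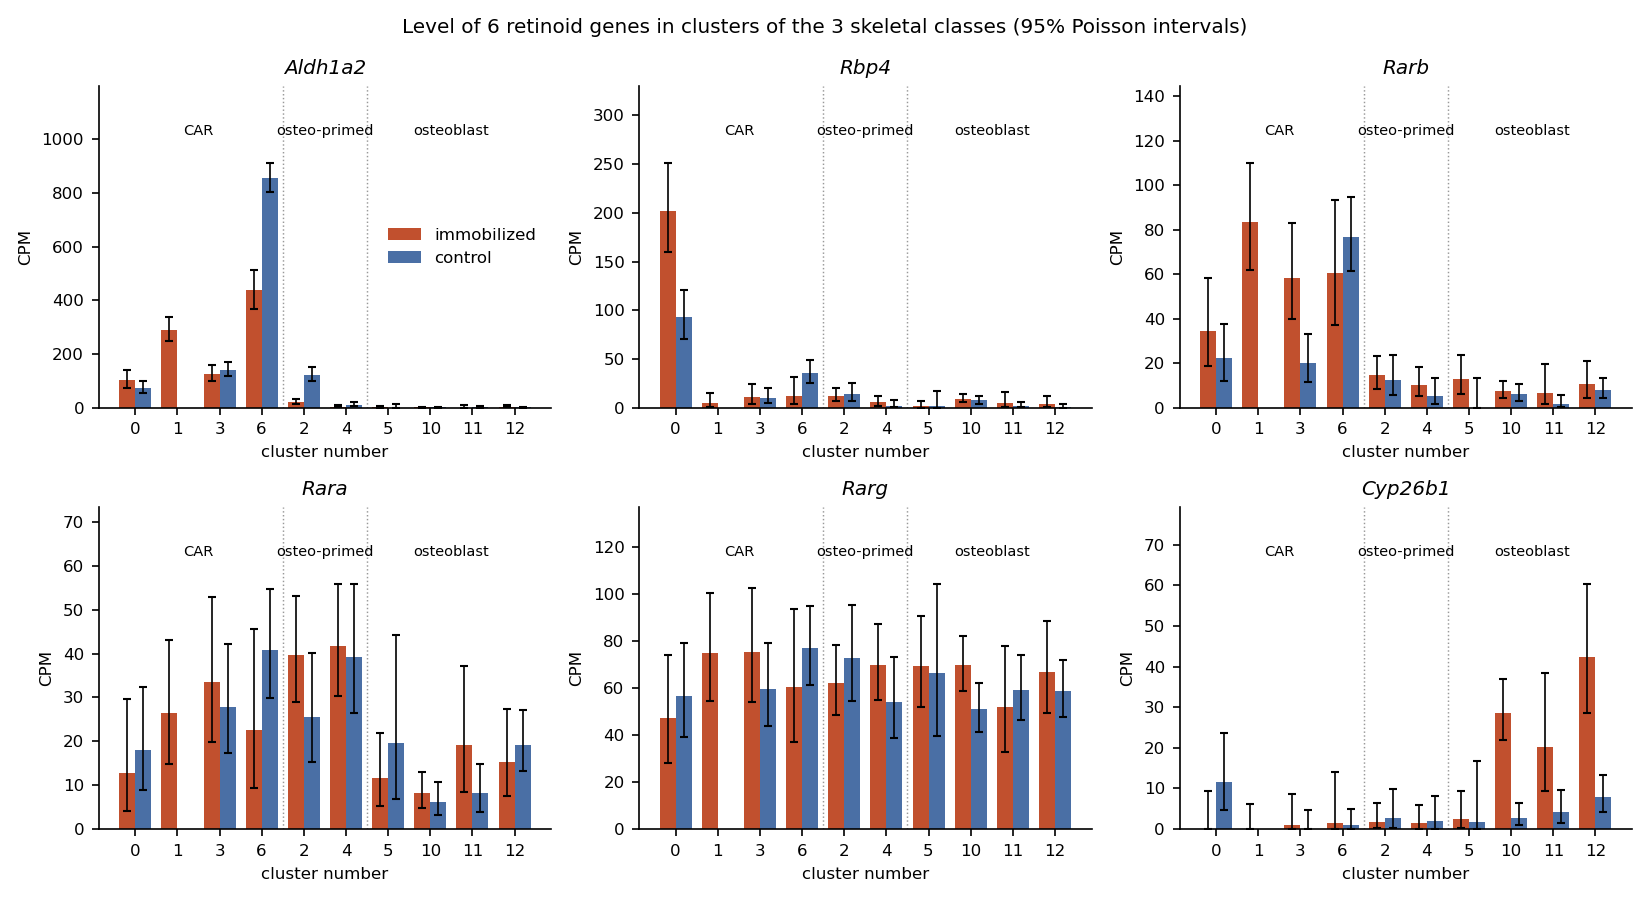
CPM of 6 retinoid genes (y axis, linear, own scale in each panel) in the clusters of the CAR, osteo-primed and osteoblast classes (x axis), immobilized pool left and control pool right, with 95% Poisson intervals; groups of fewer than 30 cells, here the control cells of cluster 1, are not drawn. Aldh1a2 peaked in CAR cluster 6 (437 CPM immobilized, 857 CPM control), Rbp4 in CAR cluster 0 and Cyp26b1 in osteoblast clusters 10, 11 and 12 of the immobilized pool, while Rarg was near the same level throughout.

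Aldh1a2 was lower in the immobilized than in the control CAR class, by 0.93 log2 units (log2 ratio -0.93, -1.10 to -0.77). Of 7569 genes with at least 50 UMIs in 1 of the pools, 1.94% differed by 2-fold or more in CAR cells (1.07% higher and 0.872% lower in the immobilized pool), and 0 of the 5 members compared did (Aldh1a2, Rbp4, Rara, Rarb and Rarg). Different clusters made up the class in the pools: clusters 1 and 3 held 113 and 105 of the 351 immobilized CAR cells, and clusters 6 and 3 held 241 and 199 of the 573 control CAR cells. With each cluster given the same weight in both pools, the log2 ratio was -0.63. Within cluster 6 it was -0.97 (-1.23 to -0.72), while it was -0.16 (-0.62 to 0.28) in cluster 3, -0.21 (-0.87 to 0.59) in cluster 1 and 0.51 (-0.14 to 1.16) in cluster 0, each of these 3 within counting error of no difference.

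CAR clusters were unequal mixes of female and male cells. Sex was read in each cell from Xist and 4 Y-linked genes, since the labels give none. Cluster 6 was 96.9% female among sexed cells in the immobilized pool and 99.6% in the control pool, and cluster 3 was 6.67% and 2.41% female. Over the whole CAR class 30.1% of sexed immobilized cells and 48.1% of sexed control cells were female. How many animals of each sex a pool held is not given, so sex, animal and cluster cannot be told apart, and a ratio between pools mixes cells of different sexes in different shares. For that reason the members' comparisons in CAR cells, and ratios past 2-fold in any class, are also given within female and within male cells.

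Female CAR cells had more Aldh1a2 than male CAR cells in both pools. In the immobilized pool the level was 388 and 401 CPM on the lanes in 93 female cells, against 170 and 164 CPM in 216 male cells (log2 ratio, female over male, 1.24, 0.94 to 1.54). In the control pool the lanes gave 819 and 802 CPM in 245 female cells, against 103 and 119 CPM in 264 male cells (2.86, 2.60 to 3.14), a 7.28-fold difference. In the immobilized pool 66.1% of female and 33.8% of male CAR cells had a UMI, and in the control pool 83.3% of female and 27.7% of male CAR cells. Among genes compared between the sexes in CAR cells, 2.9% differed by 2-fold or more in the immobilized pool and 4.73% in the control pool; of the 4 members compared, Aldh1a2 and Rbp4 did in the immobilized pool, and Aldh1a2, Rbp4 and Rarb in the control pool.

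Within each sex the pools differed in opposite directions. In female CAR cells Aldh1a2 was 395 CPM in the immobilized and 811 CPM in the control pool (log2 ratio -1.04, -1.27 to -0.81). Male CAR cells had 167 CPM in the immobilized and 111 CPM in the control pool (0.58, 0.26 to 0.92). By cluster, the male log2 ratio was -0.03 in cluster 1 (97 immobilized and 6 control cells), -0.26 in cluster 3 and -0.10 in cluster 0. Each of these intervals held 0. Female cells of cluster 6 (62 immobilized and 231 control cells) had 440.1 and 870.5 CPM (-0.98, -1.26 to -0.71). In cluster 1 the median gene had a log2 ratio of -0.82, and relative to it Aldh1a2 over all cells was 0.61 (-0.05 to 1.41). With finer clusters (Leiden resolution 2.0) mostly male CAR clusters differed in both directions. The Il34 and Igfbp3 cluster had 319 CPM in the immobilized and 99.4 CPM in the control pool (35 and 27 UMIs). The Ryr2 cluster had 49.1 and 224.9 CPM (3.5 and 68.5 UMIs). The part of the cluster mix in the difference within either sex was not tested. The 9 erythroid markers summed to 521 and 513 CPM on the lanes of immobilized CAR cells and 182 and 176 CPM on those of control CAR cells, with 9 of 9 higher and none at 0. The 10 granulocyte markers summed to 377 and 370 CPM on the immobilized and 191 and 183 CPM on the control lanes, with 9 of 10 higher and Fcnb at 0 in both pools and Mpo in the control pool. The part of either list in the results for CAR cells was not tested.

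**Figure D2:**
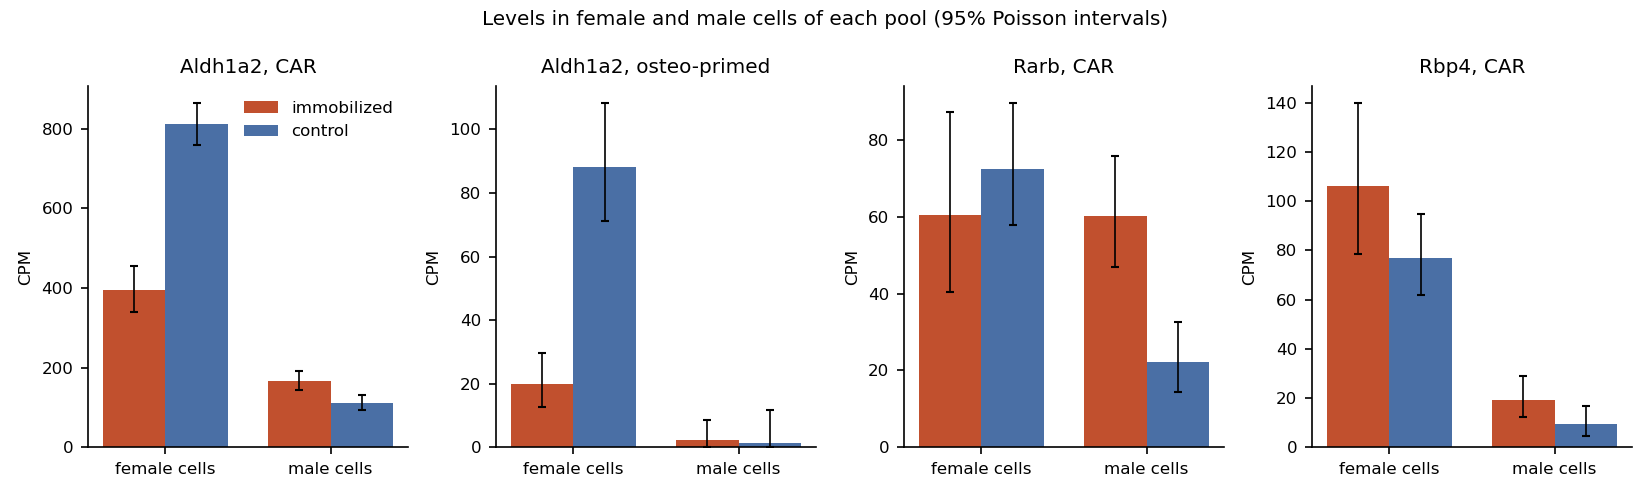
CPM (y axis, linear from 0, own scale in each panel) of Aldh1a2 in CAR and osteo-primed cells and of Rarb and Rbp4 in CAR cells, in female and male cells of the immobilized pool (left bar) and the control pool (right bar), with 95% Poisson intervals. Aldh1a2 in female CAR cells was 395 CPM in the immobilized and 811 CPM in the control pool, above male cells in both; Rarb in male CAR cells was 60.0 CPM in the immobilized and 22.3 CPM in the control pool.

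Osteo-primed cells had less Aldh1a2 in the immobilized pool. The lanes gave 12.7 and 12.6 CPM in immobilized and 66.3 and 62.2 CPM in control osteo-primed cells (28 and 96.5 UMIs; log2 ratio -2.33, -3.01 to -1.73). Of 6695 genes compared in this class, 1.4% differed by 2-fold or more (0.747% higher and 0.657% lower in the immobilized pool); of the 3 members compared, Aldh1a2 was lower and Rara and Rarg were within 2-fold. A single control cell held 25 UMIs, 25.9% of the control class's count, and without the cell with most UMIs in each pool the log2 ratio was -2.28. With finer clusters (Leiden resolution 2.0) it was -1.44, as 8 immobilized and 11 control cells with 794 and 398 CPM joined the class. Most of the signal was in cluster 2, the Hs3st5 and Nlgn1 cluster, with 21.1 CPM in the immobilized and 122 CPM in the control pool.

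Almost all Aldh1a2 UMIs of osteo-primed cells came from female cells. Female osteo-primed cells had 19.9 CPM in the immobilized pool (178 cells) and 88.2 CPM in the control pool (126 cells), a log2 ratio of -2.13 (-2.86 to -1.49). Male cells held 2 UMIs in the immobilized pool (146 cells) and 0.5 in the control pool (64 cells), too few to compare. In the immobilized pool 2.48% of genes differed by 2-fold or more between the sexes in this class, and neither of the 2 members compared (Rara, Rarg) did. In the control pool 5.14% of genes did, and of the 2 members compared (Aldh1a2, Rarg) Aldh1a2 did. The 14 CAR markers summed to 5955 and 5948 CPM in immobilized and 6070 and 6086 CPM in control osteo-primed cells. Of these, 7 were higher, 7 lower and none at 0. They are markers of the whole CAR class and do not single out cluster 6, the CAR cluster with the highest Aldh1a2. The 10 granulocyte markers summed to 265 and 261 CPM in immobilized and 114 and 120 CPM in control osteo-primed cells. Of these, 9 of 10 were higher, with Fcnb at 0 in the immobilized and Mpo in the control pool. The 9 erythroid markers summed to 106 and 109 CPM in immobilized and 50.2 and 51.0 CPM in control osteo-primed cells, with 9 of 9 higher and Klf1 at 0 in the control pool. The part of the CAR, granulocyte or erythroid markers in the results for this class was not tested. Outside the skeletal classes Aldh1a2 reached 296 CPM in 52 control pericyte- or smooth-muscle-like cells (71 UMIs), of which the immobilized pool had 7 cells.

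Aldh1a1, another enzyme that oxidizes retinal, was nearly absent from the skeletal classes. It had 32 UMIs in all immobilized cells and 15.5 in all control cells. The CAR level was 2.43 CPM in the immobilized and 0.586 CPM in the control pool (4.5 and 1.5 UMIs), the osteoblast level 1.36 and 0.289 CPM (5.5 and 1.5 UMIs), and the osteo-primed level 1.35 CPM in the immobilized pool (3 UMIs). No UMI was counted in control osteo-primed cells, which allows up to 2.00 CPM. Counts this low were given no ratio; a ratio printed for a gene with fewer than 50 UMIs in both pools is a description and enters no count of genes past 2-fold. Erythroid cells had 67.6 CPM in the immobilized pool (13 UMIs, 44 cells) and 96.6 CPM in the control pool (9.5 UMIs, 11 cells).

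Rbp4, the plasma carrier of retinol, made in liver and fat cells, was highest in a CAR cluster led by Kit and by lipid genes such as Fabp4. The CAR level was 50.6 and 49.4 CPM on the immobilized lanes and 40.1 and 41.6 CPM on the control lanes (log2 ratio 0.29, -0.13 to 0.71; 0.47 in female and 1.00 in male cells). It stood 5.68 times above the osteo-primed level in the immobilized pool and 5.33 times in the control pool, and 8.07 and 11.15 times above the osteoblast level. Osteo-primed cells had 8.81 CPM in the immobilized and 7.66 CPM in the control pool, and osteoblasts 6.20 and 3.66 CPM, both within counting error of no difference.

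Cluster 0 held 79.5 of the 92.5 Rbp4 UMIs of CAR cells in the immobilized pool and 56.5 of 104.5 in the control pool. Its level was 202 CPM in the immobilized pool and 92.7 CPM in the control pool (log2 ratio 1.12, 0.61 to 1.64). In the control pool 1 cell held 45.1% of that cluster's Rbp4 UMIs. Cluster 6 had 12.1 CPM in the immobilized and 35.9 CPM in the control pool, from 4 and 39.5 UMIs (log2 ratio -1.42, -3.51 to -0.10). Without cluster 0 the CAR ratio was -1.42, the opposite direction. Female cells of the cluster had 324.5 and 625 CPM (19 immobilized and 8 control cells; -0.94, -1.56 to -0.34) and male cells 85.5 and 8.75 CPM (33 and 95 cells; 3.16, 1.67 to 5.32), in opposite directions. The direction in female cells rests on 1 control cell, which held 25.5 of their 51 UMIs: without the cell with most UMIs in each pool the ratio was -0.39 (-1.18 to 0.42) in female cells, 2.31 (0.25 to 5.03) in male cells and 1.78 (1.16 to 2.46) in the whole cluster. With finer clusters (Leiden resolution 2.0) the lipid cells formed a cluster of their own, led by Fabp4, Rbp4, Scd1 and Fabp5, with 46 immobilized and 56 control cells that were 70.3% and 100% female. Rbp4 there was 265 CPM in the immobilized and 219 CPM in the control pool (79 and 73 UMIs), and Aldh1a2 was 119 and 661 CPM. Cluster 0 was 36.5% female among sexed cells in the immobilized and 7.77% in the control pool, with 8 female control cells. Most of the 56 control lipid cells therefore lay outside cluster 0, so it did not hold the same kinds of cells in both pools. The part of this in the Rbp4 ratios of clusters 0 and 6 was not tested. Across the CAR class female cells had more Rbp4 than male cells in both pools: 106 against 19.3 CPM in the immobilized pool (log2 ratio, female over male, 2.44, 1.72 to 3.24) and 77.0 against 9.42 CPM in the control pool (2.98, 2.12 to 4.09).

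The 3 receptors had different patterns over the classes. Rarb followed the CAR class, Rara was higher in both stromal classes than in osteoblasts, and Rarg was at nearly one level in all 3. Levels are compared within a gene only, since 3′ tags of different genes are not captured alike.

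Rarb, with the hexamer pair shown above in a promoter window inside the gene, was 64.2 and 59.1 CPM on the lanes of immobilized CAR cells and 42.9 and 46.6 CPM on those of control CAR cells (log2 ratio 0.46, 0.07 to 0.85). A UMI was seen in 21.1% of immobilized and 14.8% of control CAR cells, and in none of the 111 immobilized and 69 control haematopoietic cells. The CAR level was 4.96 times the osteo-primed level in the immobilized pool and 5.17 times in the control pool, and 6.90 and 8.60 times the osteoblast level. In male CAR cells it was 60.0 CPM in the immobilized and 22.3 CPM in the control pool (71.5 and 26 UMIs; 1.41, 0.77 to 2.14), while in female CAR cells it was 60.5 and 72.3 CPM (-0.24, -0.93 to 0.37). The female-over-male log2 ratio was 0.02 (-0.67 to 0.65) in the immobilized pool and 1.68 (1.05 to 2.39) in the control pool.

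Rarb also differed between pools within cluster 3, whose cells were mostly male. Cluster 3 had 58.5 CPM in the immobilized and 20.3 CPM in the control pool (log2 ratio 1.51, 0.62 to 2.50), and its male cells 61.1 and 22.8 CPM (1.40, 0.48 to 2.42). Cluster 1 had 83.4 CPM in the immobilized pool (49 UMIs), and its 11 control cells held 0.5 UMIs. In cluster 6 the levels were 60.5 and 76.8 CPM (-0.32, -1.13 to 0.37), and in cluster 0 they were 34.3 and 22.2 CPM. In osteoblasts Rarb was 8.93 CPM in the immobilized and 5.21 CPM in the control pool (36 and 27 UMIs; 0.77, 0.02 to 1.55). The median gene of that class, among genes with at least 50 UMIs in both pools, was itself 0.210 log2 units higher in the immobilized pool. Relative to it the Rarb ratio was 0.56 (-0.19 to 1.34).

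Rara, the most widely expressed of the receptors in adult mouse tissues, was 39.1 and 42.2 CPM on the lanes of immobilized and 36.2 and 29.1 CPM on those of control osteo-primed cells (log2 ratio 0.31, -0.20 to 0.85). This was 3.60 times the osteoblast level in the immobilized pool and 2.82 times in the control pool. Osteoblasts had 11.3 CPM in the immobilized and 11.6 CPM in the control pool. In CAR cells it was 24.9 CPM in the immobilized and 31.1 CPM in the control pool (-0.31, -0.88 to 0.22). Female CAR cells had 18.0 CPM in the immobilized and 42.4 CPM in the control pool (8.5 and 49.5 UMIs; -1.16, -2.48 to -0.17), and the male ratio was 0.51 (-0.29 to 1.35). No neighbours in the order of its cluster levels were apart beyond counting error.

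Rarg, the receptor best known from cartilage and skin, was the steadiest member. It was 66.5 CPM in immobilized and 66.7 CPM in control CAR cells (log2 ratio -0.00, -0.35 to 0.34; -0.21 in female and 0.21 in male cells), 65.7 and 62.9 CPM in osteo-primed cells (0.06, -0.32 to 0.45) and 67.1 and 56.3 CPM in osteoblasts (0.25, 0.01 to 0.50). Relative to the median gene of the osteoblast class the last ratio was 0.04 (-0.20 to 0.29). Female osteoblasts had a ratio of 0.28 (0.00 to 0.55) and male osteoblasts one of -0.42 (-1.11 to 0.34). Between classes the levels were not apart in either pool, and between the sexes of CAR cells the log2 ratio was -0.13 (-0.81 to 0.48) in the immobilized and 0.29 (-0.18 to 0.77) in the control pool.

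**Figure D3:**
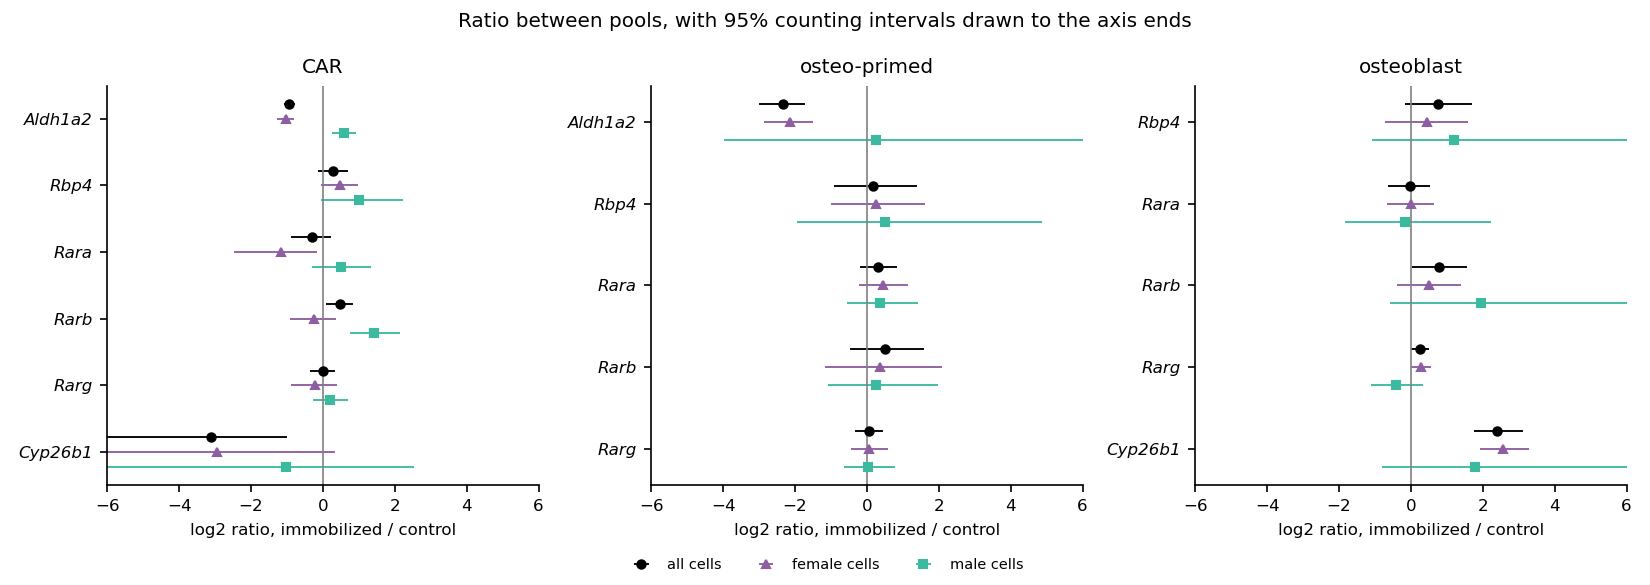
Log2 ratio of the immobilized to the control pool (x axis) for the members with enough counts to draw in each class (rows), over all cells (circles), female cells (triangles) and male cells (squares); bars are 95% counting intervals, cut where they pass the axis ends. Aldh1a2 was below 0 in female and above 0 in male CAR cells, Rarb was above 0 in male CAR cells, Rarg lay near 0 in all 3 classes and Cyp26b1 was 2.39 in osteoblasts.

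Cyp26b1, which clears retinoic acid, was higher in osteoblasts of the immobilized pool. Among the 3 classes its level was highest in osteoblasts in the immobilized pool, whereas in the control pool CAR cells (6.84 CPM) and osteoblasts (4.72 CPM) were not apart beyond counting error (log2 ratio, CAR over osteoblast, 0.55, -0.44 to 1.48). It was 23.2 and 27.1 CPM on the lanes of immobilized osteoblasts and 5.43 and 4.03 CPM on those of control osteoblasts (101.5 and 24.5 UMIs). The log2 ratio was 2.39 (1.77 to 3.11), a 5.33-fold difference, and 2.18 (1.56 to 2.90) relative to the median gene of the class. Of 8004 genes compared in osteoblasts, 3.15% differed by 2-fold or more (2.42% higher and 0.725% lower in the immobilized pool); of the 3 members compared Cyp26b1 was higher, and Rara and Rarg were within 2-fold. A UMI was seen in 9.42% of immobilized osteoblasts (44 cells) and 4.03% of control osteoblasts (19 cells), and in none of the 111 immobilized and 69 control haematopoietic cells. With every cell thinned to 2000 UMIs these shares were 3.42% and 0.753%.

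The difference was present in 3 of the 4 osteoblast clusters. Cluster 10 (Slc13a5, Mamdc2) had 28.7 CPM in the immobilized and 2.81 CPM in the control pool (log2 ratio 3.24, 2.10 to 4.93), cluster 11 (Col2a1, Bglap) 20.3 and 4.27 CPM (2.20, 0.56 to 4.09) and cluster 12 (Atf3) 42.4 and 7.80 CPM (2.41, 1.46 to 3.50). Cluster 5, the Panx3 and Adamts18 cluster, had 2.57 and 1.79 CPM. Female osteoblasts had 30.1 CPM in the immobilized pool and 5.04 CPM in the control pool (2.56, 1.91 to 3.29). Male osteoblasts had 11.8 CPM in the immobilized pool (11 UMIs, 98 cells), and 0.5 UMIs in the 32 control cells. Within the immobilized pool female exceeded male osteoblasts by a log2 ratio of 1.30 (0.45 to 2.41), where 1.01% of genes differed by 2-fold or more between the sexes and Cyp26b1 was 1 of the 2 members compared; in the control pool 10.8% of genes did, and neither of the 2 members compared (Rara, Rarg).

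The difference in Cyp26b1 moved with the mitochondrial share of a cell's counts. In osteoblasts under 5% it was 5.13 CPM in the immobilized pool (132 cells, 7 UMIs) and 4.19 CPM in the control pool (218 cells, 12.5 UMIs). Between 5% and 7.5% it was 38.1 CPM in 202 immobilized and 4.06 CPM in 172 control cells, and between 7.5% and 10% it was 30.2 CPM in 133 immobilized and 9.12 CPM in 82 control cells. The median mitochondrial share was 6.33% in immobilized and 5.29% in control osteoblasts. A stricter cell filter, which required under 5% mitochondrial counts and more genes per cell, kept 112 immobilized and 205 control osteoblasts. It left 6 and 12.5 UMIs and a log2 ratio of 0.19 (-1.56 to 1.64). This filter largely repeats the group under 5% and is no separate check. Whether the mitochondrial share had a part in the difference was not tested.

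Markers of other cell types were also unequal in these osteoblasts. The 8 osteocyte markers summed to 800 and 789 CPM on the lanes of immobilized and 667 and 681 CPM on those of control osteoblasts, with 6 of 8 higher and only Sost at 0, in the control pool. The 10 osteo-primed markers summed to 5544 and 5571 CPM in immobilized and 2145 and 2138 CPM in control osteoblasts, with 9 of 10 higher and none at 0, while osteo-primed cells themselves held 3.5 Cyp26b1 UMIs in each pool. The 10 granulocyte markers summed to 204 and 198 CPM in immobilized and 82.8 and 78.4 CPM in control osteoblasts (10 of 10 higher, Fcnb at 0 in the control pool), and the 9 erythroid markers to 69.6 and 72.2 CPM and 36.7 and 40.6 CPM (8 of 9 higher). The part of any of these lists in the result was not tested. Osteocyte-like cells had 144 CPM of Cyp26b1 in the immobilized pool (15.5 UMIs in 7 of 44 cells), and the control pool had 5 such cells with no UMI. In CAR cells Cyp26b1 had 1 UMI in the immobilized pool (0.541 CPM) and 17.5 in the control pool, where 5 cells held them, 1 of them with 8 UMIs.

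**Figure D4:**
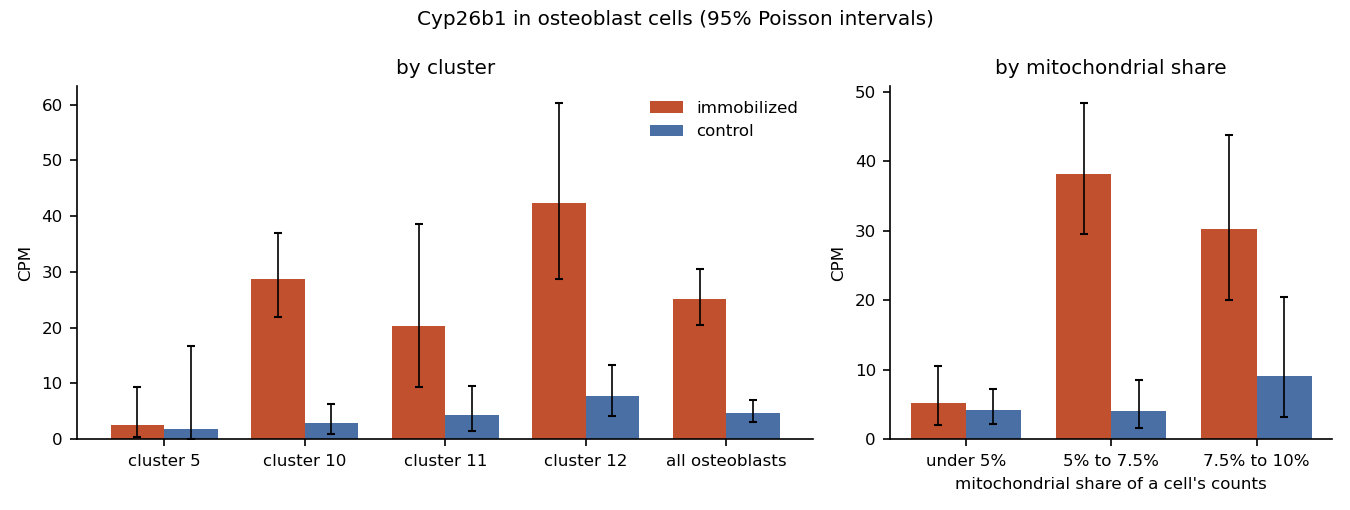
CPM of Cyp26b1 (y axis, linear from 0) in osteoblast-like cells by cluster (left panel) and by mitochondrial share of a cell's counts (right panel), immobilized pool left and control pool right, with 95% Poisson intervals. Immobilized cells were higher in clusters 10, 11 and 12 and above 5% mitochondrial counts, and under 5% the pools were at 5.13 CPM (immobilized) and 4.19 CPM (control).

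Of 46 other genes of the retinoid pathway, 22 had enough counts to be compared in CAR cells, 19 in osteo-primed cells and 20 in osteoblasts. In CAR cells 1 was higher by 2-fold or more in the immobilized pool, in osteo-primed cells 1 was lower, and in osteoblasts 2 were higher. Over all genes compared, 1.07% were higher in CAR cells, 0.657% lower in osteo-primed cells and 2.42% higher in osteoblasts. The median log2 ratio of the pathway genes compared was 0.07 in CAR cells, 0.08 in osteo-primed cells and 0.32 in osteoblasts. The medians over all genes were 0.01, 0.05 and 0.19. Among genes that were not compared, Stra6 (the retinol uptake receptor) had 0 UMIs in immobilized and 1 UMI in control CAR cells. Lrat (retinol storage) and Cyp26a1 and Cyp26c1 (the other CYP26 enzymes) had none in either pool of CAR cells.

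Fabp5, which carries fatty acids and retinoic acid in the cell, stood out in CAR cells with 130 CPM in the immobilized and 12.3 CPM in the control pool (log2 ratio 3.38, 2.86 to 3.99; 1.85 in female and 4.64 in male cells). A single immobilized male cell held 125 of its 240.5 immobilized UMIs there and a single female cell 29, and without the cell with most UMIs in each pool the ratio was 3.17 (2.47 to 4.02). In osteo-primed cells it was 14.9 and 44.3 CPM (-1.56, -2.22 to -0.95), with -2.10 in female and 1.50 in male cells, and 36 of the 66.5 control UMIs came from 1 female cell. Without the cell with most UMIs in each pool the ratio was -0.90 (-1.74 to -0.09), and 0 pathway genes were past 2-fold in this class. Among genes of retinol uptake and oxidation in CAR cells, Dhrs3, which reduces retinal back to retinol and is itself induced by retinoic acid, was 198 and 150 CPM (0.41, 0.20 to 0.62; 0.10 in female and 0.32 in male cells), the alcohol dehydrogenase Adh1 67.3 and 45.7 CPM (0.56, 0.18 to 0.93) and Dgat1 48.9 and 34.4 CPM (0.51, 0.07 to 0.95). In osteo-primed cells Dhrs3 was 126 and 101 CPM (0.32, 0.03 to 0.62).

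The homeobox genes Meis1 and Meis2, known targets of retinoic acid in the mouse limb bud, were the pathway genes past 2-fold in osteoblasts. Meis1 was 66.2 CPM in the immobilized and 31.9 CPM in the control pool (log2 ratio 1.05, 0.77 to 1.34) and Meis2 19.0 and 8.48 CPM (1.15, 0.61 to 1.73). Both came out below 2-fold when the pools were scaled to the median ratio of genes with at least 50 UMIs in both pools. Meis2 also had positive log2 ratios of 0.61 (0.32 to 0.91) in CAR cells, 111 and 72.7 CPM, and of 0.63 (0.18 to 1.12) in osteo-primed cells, 59.2 and 38.0 CPM. In female osteoblasts Meis2 had a ratio of 1.42, and in male osteoblasts one of -0.68. The coactivators of nuclear receptors Ncoa1, Ncoa2 and Ncoa3 had log2 ratios of 0.52, 0.57 and 0.63 in osteoblasts. In female osteoblasts these were 0.64, 0.74 and 0.63, and in the fewer male osteoblasts -0.27, -0.43 and 0.89. The rise was not particular to coactivators: the corepressors Ncor1 and Nrip1 had log2 ratios of 0.24 and 0.46 over all osteoblasts. The median gene of the class was itself 0.210 log2 units higher in the immobilized pool. Meis1 had a ratio of 1.20 in female and 0.11 in male osteoblasts.

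**Figure D5:**
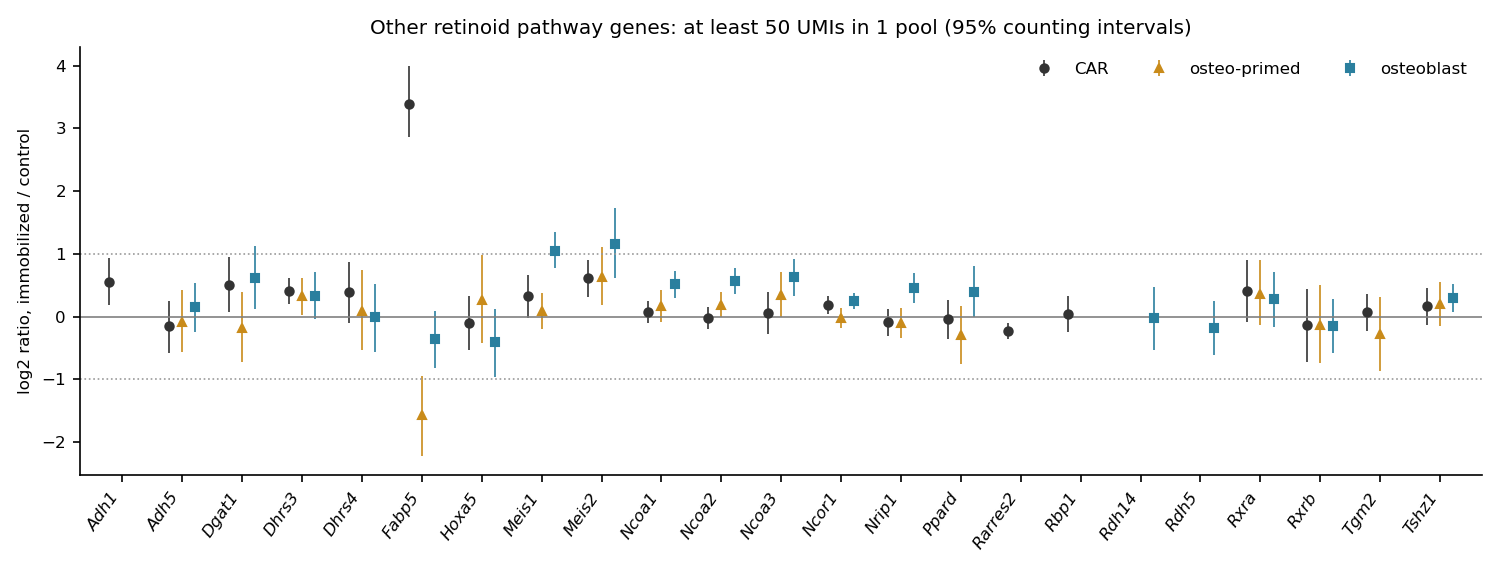
Log2 ratio of the immobilized to the control pool (y axis) for the other retinoid pathway genes reported here, with at least 50 UMIs in 1 of the pools (x axis), in CAR cells (circles), osteo-primed cells (triangles) and osteoblasts (squares), with 95% counting intervals; dotted lines mark 2-fold. Fabp5 in CAR cells (3.38) and osteo-primed cells (-1.56) and Meis1 and Meis2 in osteoblasts (1.05 and 1.15) lay past 2-fold.

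The genes with the most similar pattern to a member were found by Pearson's r of log2(CPM + 10) among 12334 genes. It was taken over 17 units, each 1 cell group in 1 pool with at least 30 cells, so a group could enter from both pools. Cells of these units share the same pools, and r is a description. Aldh1a2 was nearest to Prss23 (r = 0.967), Ednra (0.961), Gm46329 (0.959), Dkk3 (0.957) and Lpar4 (0.957), all 5 highest in cluster 6. Rarb was nearest to Dkk3 (0.960), Pcdhb17 (0.959) and Cyyr1 (0.943), and Dkk3 was the gene named for both. Rbp4 was nearest to Sparcl1 (0.862) and to Plin1 (0.856), which coats lipid droplets, both highest in cluster 0. Cyp26b1 was nearest to Grik2 (0.939), Dusp14 (0.935) and Jam2 (0.928), and Rarg to Rhoq (0.967), Ptprm (0.965) and Sash1 (0.964), all highest in the immobilized osteocyte-like cells. Cyp26b1 and Rarg were each 144 CPM in that 1 unit, from few UMIs. How far these r values rest on it was not tested. Rara had lower values, with Tfeb (0.835) first.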

How the data were processed

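Per the submitters' processing notes the authors used Cell Ranger 7.0.0 with mm10, and deposited whole-number UMI counts, gene by cell, for the 2 lanes of each pool. Lanes were averaged, since their counts differed by less than sampling noise (mean chi-square per gene 0.588 immobilized, 0.537 control). Total counts per lane were 9960011 and 10084134 (immobilized) and 10732720 and 10860328 (control); 3 barcodes occurred in both pools. Cells with under 500 genes or 10% or more mitochondrial counts were removed, as were Scrublet calls (9 barcodes, 0.515%, immobilized; 18, 1.11%, control), keeping 79.8% and 87.3%. Clusters came from 2000 variable genes without the 53 retinoid genes, 30 components, 15 neighbours and Leiden resolution 1.0 (scanpy 1.11.5, igraph 0.11.9), and were named from fixed marker lists where at least 3 markers were 2-fold above the rest. Counts were summed per class into CPM with exact Poisson intervals; ratios added 0.5 counts and carry exact conditional binomial intervals; shares carry Clopper-Pearson intervals in the tables. All intervals cover counting error only. A gene was compared with at least 50 UMIs in 1 of the pools and called at a log2 ratio of 1 or more in size. The median gene, to which some ratios are set, was taken among genes with at least 50 UMIs in both pools. Scripts were tested on simulated data. The 7 genes are named whatever their values, and similar genes are taken from the first 5 by r. Of the pathway genes compared, at most 8 a class are given with values, not strictly by the size of their ratio. The members and lists were chosen with earlier results of these data known. A female cell had Xist and no Y-linked counts, a male cell the reverse. Of 32286 features 32235 matched the GRCm38 annotation. The values of 1 pathway gene, which is counted in its list, are not reported here.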

Additional observations from a re-analysis of the deposited data

Results flagged for a closer look

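Aldh1a2 in CAR cells differed between pools in opposite directions in the sexes: the log2 ratio of immobilized to control was -1.04 in female cells and 0.58 in male cells. Within clusters 1, 3 and 0 the male ratio was -0.03, -0.26 and -0.10, each with an interval that held 0. Cluster 1 had 97 immobilized and 6 control male cells, and the part of the cluster mix was not tested. Rbp4 in CAR cluster 0 also differed in opposite directions, with -0.94 in female and 3.16 in male cells. The direction in female cells rests on 1 of 8 control cells, which held 25.5 of 51 UMIs. Without the cell with most UMIs in each pool the female ratio was -0.39 (-1.18 to 0.42). These were 2 of 46 pairs of a member and a cell group in which both sexes could be compared, and the difference between the sexes was not tested.

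Signal also appeared in cell groups outside the 3 skeletal classes. Aldh1a1 was 67.6 CPM in immobilized and 96.6 CPM in control erythroid cells, and 132 CPM in the 7 immobilized and 12.5 CPM in the 52 control pericyte- or smooth-muscle-like cells, where 1 immobilized cell held all 5 UMIs. Rarg and Cyp26b1 were each 144 CPM in immobilized osteocyte-like cells (15.5 UMIs each), a group with only 5 control cells.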

How the results depend on the processing

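Of 736 values recomputed for 98 results, 674 were the same within the rule used, 58 moved and 4 reversed. Of those that moved, 30 were shares of cells after thinning to 2000 UMIs. A ratio or share was called the same where it lay inside the first counting interval, which is wide at low counts. Leaving out lane 1 gave 83 of the values called the same and leaving out lane 2 another 83. The lanes read the same cells, so these values could hardly move. A larger pseudocount gave 49 more. The log2 ratio of immobilized to control cells reversed in 4 cases: in male cells alone for Aldh1a2 in CAR cells (0.58), Aldh1a2 in osteo-primed cells (0.24, from 2 and 0.5 UMIs) and Rarg in osteoblasts (-0.42), and in female cells alone for Rarb in CAR cells (-0.24). In CAR cells it also moved to -1.16 (female cells) and 0.51 (male cells) for Rara, to 1.41 (male cells) for Rarb, to 1.00 (male cells), 0.74 (stricter cell filter) and -1.42 (without the cluster led by Kit and Fabp4) for Rbp4, and to -0.63 (1 cluster mix in both pools) for Aldh1a2. Aldh1a2 in osteo-primed cells moved to -1.44 at Leiden resolution 2.0, where a cluster of 8 immobilized and 11 control cells with 794 and 398 CPM of Aldh1a2 joined the class. Cyp26b1 in osteoblasts moved to 0.19 under the stricter cell filter, which largely repeats the split by mitochondrial share given above. With a count minimum of 10 the number of genes past 2-fold was 598 in CAR cells, 499 in osteo-primed cells and 858 in osteoblasts, against 147, 94 and 252 at a minimum of 50, since more genes of low count entered, and 2 rather than 1 pathway genes passed in osteo-primed cells. Median-ratio scaling left 0 of the pathway genes past 2-fold in osteoblasts, against 2, and leaving out the cell with most UMIs left 0 in osteo-primed cells, against 1. The cause of the other moves was not tested. Leaving out sex-linked genes from the clustering, the cell with most UMIs or the Kit and Fabp4 cluster were alternatives chosen after seeing the data. A change of sign was counted as a move where the first interval held 0, as for Rbp4 and Rara.

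With 1 lane alone the ratios ran from -0.93 to -0.93 for Aldh1a2 in CAR cells, from -2.36 to -2.29 for Aldh1a2 in osteo-primed cells and from 2.08 to 2.72 for Cyp26b1 in osteoblasts. Rara ran from -0.39 to -0.23 in CAR cells, from 0.11 to 0.53 in osteo-primed cells and from -0.09 to 0.03 in osteoblasts, Rarb from 0.34 to 0.58 in CAR cells, and Rbp4 from 0.25 to 0.33 there. Rarg ran from -0.06 to 0.06, from 0.05 to 0.07 and from 0.15 to 0.35 in the 3 classes. Female over male, Aldh1a2 in CAR cells ran from 1.19 to 1.29 in the immobilized and from 2.75 to 2.98 in the control pool, and genes past 2-fold from 155 to 164, 121 to 127 and 281 to 287. No paired analysis was possible because the replicate numbers are lanes of the same cells and each group is 1 pool.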

Other observations

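Osteocyte-like cells numbered 44 in the immobilized and 5 in the control pool. Rara was 60.5 CPM in the immobilized ones (6.5 UMIs), and Aldh1a2 and Rarb had no UMI there. Pericyte- or smooth-muscle-like cells held 2.5 Aldh1a2 UMIs in the immobilized pool (7 cells) and 71 in the control pool (52 cells, 56.7% of them with a UMI).

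Few CAR cells held the retinoic acid binding gene Fabp5: 8.06% of female and 4.86% of male immobilized CAR cells had a Fabp5 UMI, against 3.88% and 1.70% in the control pool. The retinal oxidation paralog Aldh1a3 had 5.5 UMIs in immobilized and 12 in control osteo-primed cells, too few to be compared, and Aldh1a7, a close paralog of Aldh1a1 whose reads may be shared with it, had 0 and 0.5.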
